A study of Homo sapiens with 6 samples.

Results

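Genes known as transcriptional targets of p53 were followed in HT29 cells deprived of an amino acid. The set held 30 genes chosen by symbol, and all 30 were found among the 60676 gene identifiers of the deposited tables through GENCODE release 44 (GRCh38). HT29 is an established colon adenocarcinoma cell line, and the labels give its genotype as WT. That label is not read here as a statement on p53 function, which these tables of gene counts do not show. Cells were kept for 48 h in control medium (untreated), in histidine-depleted medium or in tryptophan-depleted medium, and polyadenylated RNA was sequenced from 2 libraries per group. The methods describe the histidine-free medium as RPMI-based and the tryptophan-free medium as DMEM-based, both with dialyzed serum, and do not give the base of the control medium for these libraries. The missing amino acid and the base medium therefore cannot be told apart, most of all where both depletions are compared with each other. The labels do not say whether the 2 libraries of a group came from separate cultures, so the tests measure the spread between these libraries, which may be technical.

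p53 is a transcription factor that is stabilised after DNA damage and other stresses and binds DNA as a tetramer at paired half-sites. Its targets halt the cell cycle, repair DNA, trigger apoptosis or adjust metabolism, and MDM2, itself a target, marks p53 for degradation. Many of the same genes also have p53-independent inputs, among them the transcription factors of the amino acid stress response.

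The libraries held between 46390819 and 64388876 reads, recovered as whole numbers from 100% of the deposited values. Values per library are given below as scaled reads, which are recovered reads divided by size factors computed over all 6 libraries. Colon epithelial markers summed to between 374598 and 398666 scaled reads in untreated cells, to between 508137 and 534387 after histidine depletion and to between 539329 and 541453 after tryptophan depletion, with none of the 7 markers at 0. After histidine depletion KRT8, KRT20, CDH1 and EPCAM rose by 0.78, 1.74, 0.49 and 0.18 on the log2 scale, whereas CDX2 fell by 1.37, KRT18 fell by 0.52 and VIL1 fell by 0.13. After tryptophan depletion KRT8, KRT20, KRT18 and CDH1 rose by 0.36, 2.38, 0.39 and 0.71, CDX2 fell by 0.24, and EPCAM and VIL1 did not pass. Leukocyte and mast cell markers summed to between 172 and 184, between 104 and 128, and between 439 and 462 scaled reads in the same order, and KIT, TPSAB1 and CPA3 were at 0 in every library. Of the leukocyte markers, CD14 had 104 and 119 scaled reads in untreated cells and 379.9 and 367 without tryptophan. Stromal and endothelial markers summed to between 84.9 and 127, with COL1A2 at 0, and their members moved apart. VWF had 7.65 and 3.98 scaled reads in untreated cells and 42.5 and 40.7 without histidine, whereas PECAM1 fell by 2.15 and COL1A1 fell by 1.10 on the log2 scale. The part of these shifts in the results was not tested, and in bulk libraries fewer cells of a type and less RNA per cell cannot be told apart.

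The p53 targets did not move as a block in either depletion. After histidine depletion, 28 of the 30 genes could be tested, and 10 of them rose, 13 fell and 5 did not pass the test (limma, Benjamini-Hochberg adjusted p under 0.05). Of all 18288 genes tested, 39.1% rose and 38.2% fell, so the targets' counts were near this background. The median log2 fold change of the tested targets was -0.093, against 0.010 over all genes tested, and moved to -0.046 without untreated replicate 2 and to -0.042 with quantile normalization. After tryptophan depletion 10 targets rose, 11 fell and 7 did not pass, where 36.1% of 17960 genes rose and 34.8% fell. Their median log2 fold change was -0.0024, against 0.013 over all genes, and lay on both sides of 0 among the alternatives, from -0.025 without untreated replicate 1 to 0.034 without untreated replicate 2. A change of at least 1 on the log2 scale was called for 6 targets after histidine depletion (3 higher, 3 lower), with 32.5% of all genes called at that size. The same size was called for 8 targets after tryptophan depletion (3 higher, 5 lower), with 20.5% of all genes. Both depletions were compared with the same untreated libraries, so their values are given side by side.

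**Figure D1:**
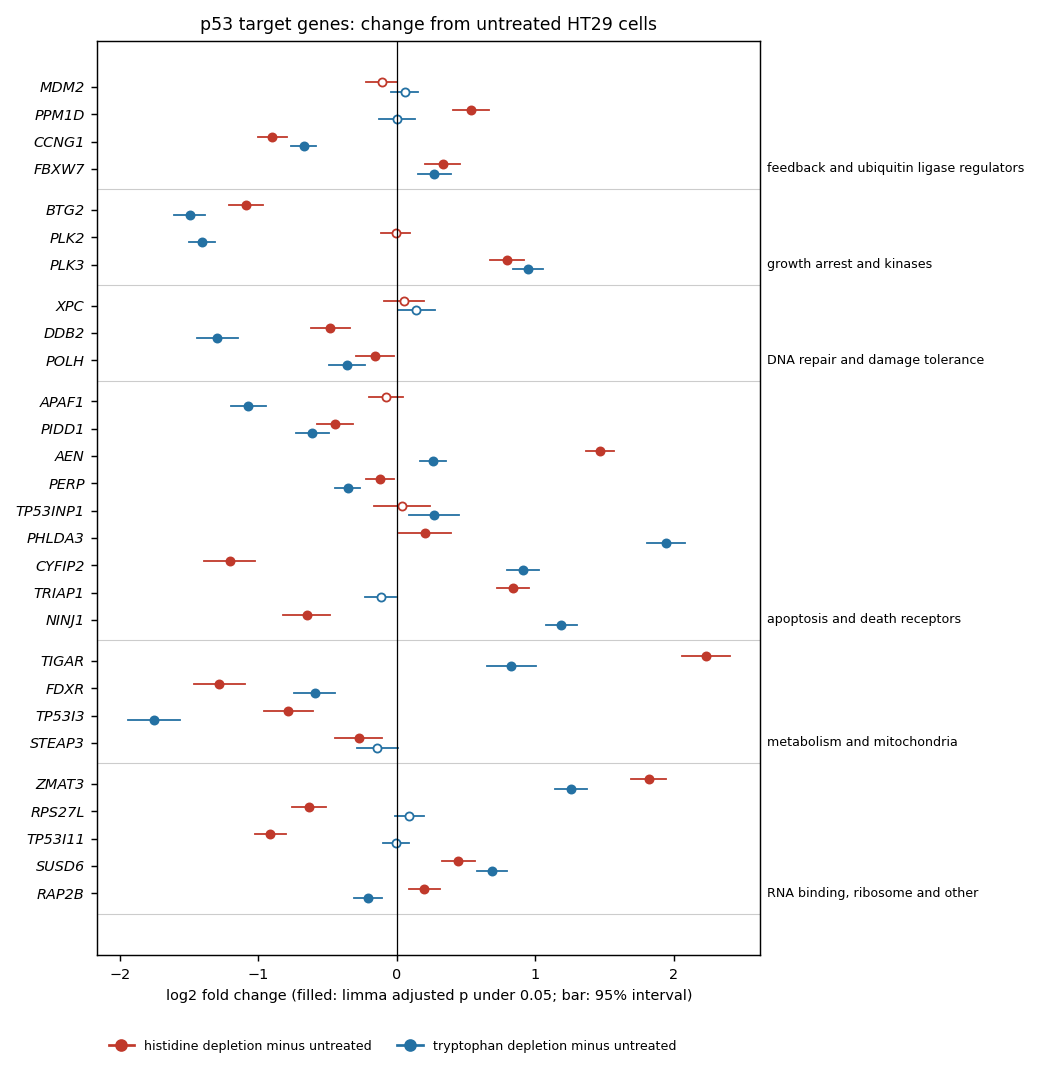
Log2 fold change of the 28 tested p53 target genes after histidine depletion (red) and tryptophan depletion (blue) against untreated HT29 cells, grouped by role. Points are limma estimates from 2 libraries per group, bars are 95% intervals, and filled points passed an adjusted p of 0.05. Filled points lie on both sides of 0 in both colours, with TIGAR at 2.23 after histidine depletion and PHLDA3 at 1.94 after tryptophan depletion the furthest to the right.

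The other 2 genes were too low to test. SPATA18, a mitochondrial quality control factor, had between 1 and 5 reads per library. EDA2R, a death receptor of the TNF receptor family, had between 0 and 4 reads. Per exonic length, CCNG1 had the highest level in untreated cells at 65.9 ± 1.48 RPKM (SD, n = 2), followed by PERP at 45.5 ± 0.52 and PLK2 at 30.3 ± 0.33. TIGAR had the lowest level of the tested targets at 0.69 ± 0.12 RPKM.

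Of the 4 genes that feed back on p53 or mark proteins for degradation, 2 rose and 1 fell after histidine depletion (39.1% and 38.2% of all genes), and 1 rose and 1 fell when tryptophan was missing (36.1% and 34.8%). MDM2, the ubiquitin ligase that degrades p53, did not pass the test in either depletion. Its log2 fold change was -0.11 after histidine depletion (95% interval -0.22 to 0.0046, adjusted p = 0.0745) and 0.058 after tryptophan depletion (-0.039 to 0.16, adjusted p = 0.292). The first of these passed in 5 alternative settings, edgeR among them, and the second passed without untreated replicate 2 (0.11). Leaving out a library gave -0.16 to -0.055 for the first and 0.0065 to 0.11 for the second. Both 95% intervals, which measure only the spread between these libraries, leave out a change of MDM2 by 1 on the log2 scale in either direction. Genes on the opposite strand overlap 11.1% of the exonic length of MDM2, and genes on the same strand overlap 5.3%. PPM1D, a phosphatase that switches off p53 signalling, rose by 0.54 after histidine depletion and had a log2 fold change of 0.00033 after tryptophan depletion. CCNG1, a cyclin that recruits a phosphatase to MDM2, fell by 0.90 without histidine and fell by 0.67 without tryptophan. FBXW7, the substrate receptor of a ubiquitin ligase, rose by 0.33 and by 0.27.

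Of the growth arrest genes, BTG2 (ENSG00000159388, chr1:203305491-203309602, plus strand), an antiproliferative factor that promotes mRNA deadenylation, had 2563 and 2640 scaled reads in untreated cells, 1156 and 1277 without histidine, and 985 and 873 without tryptophan. All 4 depleted libraries lay below both untreated libraries. BTG2 fell by 1.09 on the log2 scale after histidine depletion (SE 0.060, adjusted p = 3.05e-14) and fell by 1.49 after tryptophan depletion (SE 0.057, adjusted p = 1.06e-53). PLK2 (ENSG00000145632, chr5:58453982-58460139, minus strand), a polo-like kinase active in centriole duplication, had 7091 and 7432 scaled reads in untreated cells, 7301 and 7053 without histidine, and 2719 and 2786 without tryptophan. The histidine-depleted and untreated libraries of PLK2 overlapped, and both tryptophan-depleted libraries were lower. Its log2 fold change was -0.0077 after histidine depletion (95% interval -0.11 to 0.097, adjusted p = 0.897; -0.23 with quantile normalization, which passed), and it fell by 1.41 after tryptophan depletion (SE 0.048, adjusted p = 1.03e-59). PLK3, a stress-responsive kinase of the same family, rose by 0.80 and by 0.95.

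Of the 3 DNA repair genes, 2 fell in each depletion and XPC did not pass in either, where 38.2% of all genes fell without histidine and 34.8% without tryptophan. DDB2 (ENSG00000134574, chr11:47214465-47239217, plus strand), which recognises ultraviolet lesions, had 973 and 979 scaled reads in untreated cells, 692 and 699 without histidine, and 404 and 393 without tryptophan. The 3 groups did not overlap. DDB2 fell by 0.48 after histidine depletion (SE 0.069, adjusted p = 1.02e-06; -0.30 with quantile normalization) and fell by 1.30 after tryptophan depletion (SE 0.075, adjusted p = 4.93e-35). POLH, a polymerase that copies past damaged bases, fell by 0.16 and fell by 0.36, and the first of these calls was lost in several alternative settings. XPC, the damage sensor of nucleotide excision repair, had log2 fold changes of 0.052 and 0.14 that did not pass the test (adjusted p = 0.506 and 0.0534), and 24.6% of its exonic length overlaps genes on the opposite strand. XPC passed as higher with quantile normalization, at 0.23 without histidine (adjusted p = 0.00466) and 0.25 without tryptophan (adjusted p = 0.0021). Its tryptophan value also passed with a replicate block, with all 6 libraries in the fit and without untreated replicate 2 (0.19, adjusted p = 0.00774).

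Of the 9 tested apoptosis genes, 3 rose and 4 fell after histidine depletion (39.1% and 38.2% of all genes), and 5 rose and 3 fell when tryptophan was missing (36.1% and 34.8% of all genes). AEN (ENSG00000181026, chr15:88621337-88632281, plus strand), a nuclease that degrades DNA in dying cells, had 3862 and 4033 scaled reads in untreated cells, 10825 and 10886 without histidine, and 4831 and 4674 without tryptophan. The histidine-depleted libraries stood far above the rest. AEN rose by 1.47 after histidine depletion (SE 0.050, adjusted p = 2.24e-18) and by 0.26 after tryptophan depletion (SE 0.048, adjusted p = 5.32e-07). PHLDA3 (ENSG00000174307, chr1:201464278-201469237, minus strand), which competes with AKT for membrane lipids, had 409 and 474 scaled reads in untreated cells, 501 and 509 without histidine, and 1717 and 1696 without tryptophan. Here the tryptophan-depleted libraries stood apart, by a rise of 1.94 on the log2 scale (SE 0.068, adjusted p = 5.19e-58). After histidine depletion PHLDA3 rose by 0.21 (adjusted p = 0.0423), a call that was lost in several alternative settings. This value was 0.095 without untreated replicate 1 and 0.31 without untreated replicate 2. With quantile normalization it was 0.44 and passed (adjusted p = 0.00102). A second gene on the same strand overlaps 18.4% of the exonic length of PHLDA3.

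CYFIP2 and NINJ1 moved in opposite directions in the depletions. CYFIP2 (ENSG00000055163, chr5:157266079-157395595, plus strand), a subunit of the WAVE complex that controls actin, had 1014 and 999 scaled reads in untreated cells, 384 and 487 without histidine, and 1884 and 1926 without tryptophan. The 3 groups did not overlap, with untreated cells in the middle. CYFIP2 fell by 1.21 after histidine depletion (SE 0.089, adjusted p = 8.58e-12) and rose by 0.91 after tryptophan depletion (SE 0.058, adjusted p = 1.72e-31). NINJ1 (ENSG00000131669, chr9:93121496-93134251, minus strand), which ruptures the plasma membrane of dying cells, had 1089 and 1343 scaled reads in untreated cells, 733 and 799.7 without histidine, and 2819 and 2724 without tryptophan. The order of the groups was that of CYFIP2. NINJ1 fell by 0.65 after histidine depletion (SE 0.082, adjusted p = 1.19e-07) and rose by 1.19 after tryptophan depletion (SE 0.057, adjusted p = 5.26e-43).

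APAF1 (ENSG00000120868, chr12:98645290-98735433, plus strand), the scaffold of the apoptosome, had 1466 and 1545 scaled reads in untreated cells, 1400 and 1436 without histidine, and 720.3 and 717 without tryptophan. The histidine-depleted libraries lay just below the untreated ones and the tryptophan-depleted libraries far below. APAF1 fell by 1.07 after tryptophan depletion (SE 0.063, adjusted p = 1.86e-34), and its log2 fold change after histidine depletion was -0.077 (95% interval -0.20 to 0.047, adjusted p = 0.246). The remaining tested apoptosis genes changed by less than 1. TRIAP1, a mitochondrial protein that opposes apoptosis, rose by 0.84 after histidine depletion and had a log2 fold change of -0.12 after tryptophan depletion (adjusted p = 0.0597), which passed with edgeR (adjusted p = 0.0237), with a replicate block and without untreated replicate 1. PIDD1, the scaffold that activates caspase-2-dependent signalling, fell by 0.45 and fell by 0.61. PERP, a desmosome-associated membrane protein, fell by 0.12 and fell by 0.36, the first of these a call lost in several alternative settings and -0.37 with quantile normalization. TP53INP1, a nuclear and autophagy-related stress protein, had a difference of 0.036 on the log2 scale without histidine, which did not pass (adjusted p = 0.75), and rose by 0.27 after tryptophan depletion. The latter call was lost with DESeq2 (adjusted p = 0.0822) and without tryptophan-depleted replicate 2 (0.22, adjusted p = 0.116), and the former value passed with quantile normalization (0.25, adjusted p = 0.0313).

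Of the 4 tested metabolic genes, 1 rose and 3 fell after histidine depletion (39.1% and 38.2% of all genes), and 1 rose and 2 fell when tryptophan was missing (36.1% and 34.8%). TIGAR (ENSG00000078237, chr12:4307763-4360028, plus strand), a bisphosphatase that diverts sugar from glycolysis, had 369 and 300.4 scaled reads in untreated cells, 1565 and 1556 without histidine, and 568 and 624 without tryptophan. All depleted libraries exceeded the untreated ones, the histidine-depleted ones by more. TIGAR rose by 2.23 after histidine depletion (SE 0.084, adjusted p = 1.7e-17) and by 0.83 after tryptophan depletion (SE 0.088, adjusted p = 8.71e-16), and 18.1% of its exonic length overlaps another gene on the same strand. FDXR (ENSG00000161513, chr17:74862497-74873031, minus strand), the mitochondrial ferredoxin reductase, had 736 and 822 scaled reads in untreated cells, 303 and 333 without histidine, and 515 and 519 without tryptophan. Its groups did not overlap. FDXR fell by 1.28 without histidine (SE 0.088, adjusted p = 2.02e-12) and fell by 0.59 without tryptophan (SE 0.075, adjusted p = 3.28e-12). TP53I3 (ENSG00000115129, chr2:24077433-24085861, minus strand), a quinone oxidoreductase, had 641 and 660 scaled reads in untreated cells, 352 and 399.9 without histidine, and 214 and 174 without tryptophan. The 3 groups of TP53I3 did not overlap, and the tryptophan-depleted libraries were lowest. TP53I3 fell by 0.78 without histidine (SE 0.087, adjusted p = 1.42e-08) and fell by 1.75 without tryptophan (SE 0.096, adjusted p = 2.53e-37). STEAP3, a ferrireductase of endosomes, fell by 0.28 after histidine depletion and had a log2 fold change of -0.14 after tryptophan depletion (adjusted p = 0.09). The histidine call of STEAP3 was lost with quantile normalization (-0.065, adjusted p = 0.505), without the trend (adjusted p = 0.0619) and without untreated replicate 1 (-0.18, adjusted p = 0.0778). Its tryptophan value passed without untreated replicate 2 (-0.24), and leaving out a library gave values from -0.24 to -0.040.

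Of the 5 genes with RNA-binding, ribosomal or other roles, 3 rose and 2 fell after histidine depletion (39.1% and 38.2% of all genes), and 2 rose and 1 fell when tryptophan was missing (36.1% and 34.8%). ZMAT3 (ENSG00000172667, chr3:178960121-179072215, minus strand), an RNA-binding regulator of splicing, had 836 and 848 scaled reads in untreated cells, 3057 and 2854 without histidine, and 2024 and 2035 without tryptophan. All 4 depleted libraries exceeded the untreated ones. ZMAT3 rose by 1.82 (SE 0.060, adjusted p = 1.43e-18) and by 1.26 (SE 0.059, adjusted p = 2.86e-44). SUSD6, a membrane protein, rose by 0.44 and by 0.69. RAP2B, a small GTPase, rose by 0.20 after histidine depletion and fell by 0.21 after tryptophan depletion, and the rise was lost without the trend (adjusted p = 0.0517) and was 0.11 with quantile normalization. RPS27L, a ribosomal protein whose reads could be shared with its near-identical paralog RPS27, and TP53I11, a membrane protein, fell by 0.63 and fell by 0.91, respectively, without histidine. After tryptophan depletion their log2 fold changes were 0.091 and -0.0051 and did not pass the test (adjusted p = 0.116 and 0.929), although both passed with quantile normalization (0.12 and -0.097).

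**Figure D2:**
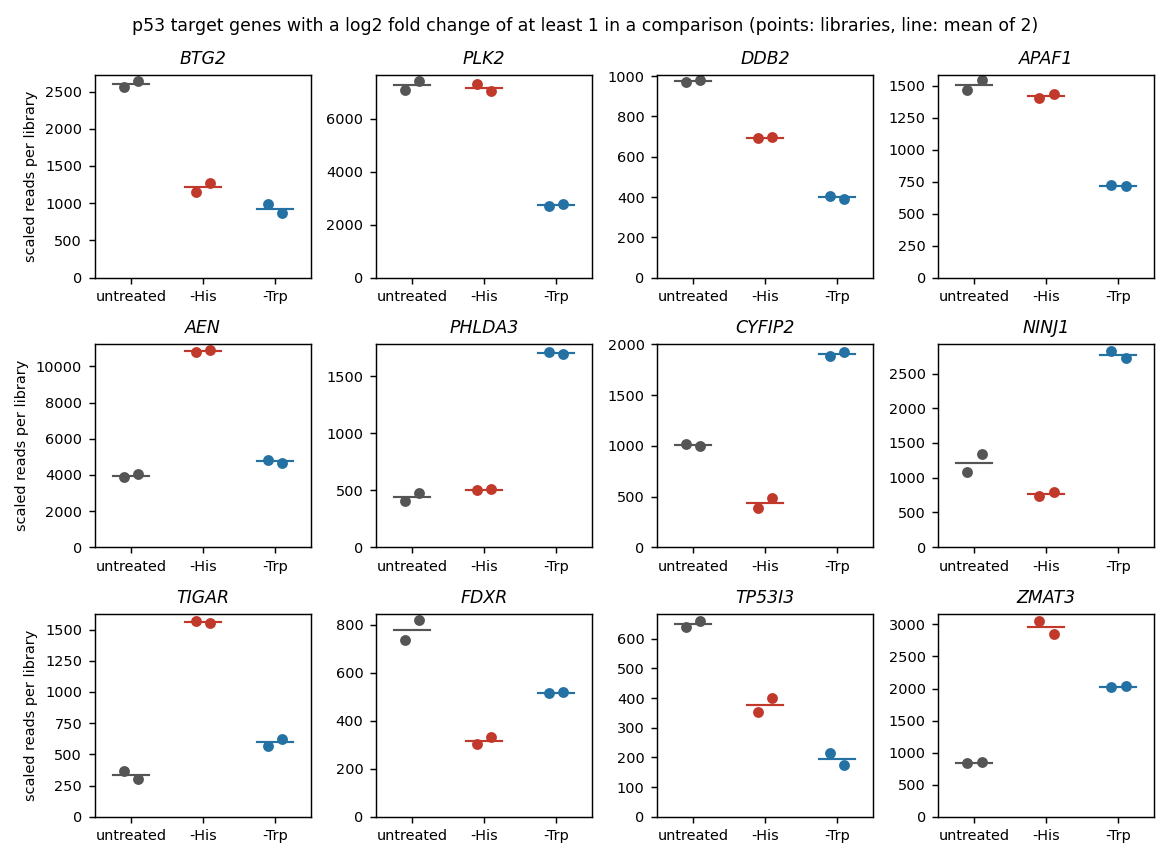
Scaled reads of the 12 p53 target genes whose log2 fold change reached 1 in a comparison, with a point for each library and a line at the mean of 2 libraries. AEN, TIGAR and ZMAT3 were highest after histidine depletion, whereas PHLDA3, CYFIP2 and NINJ1 were highest after tryptophan depletion.

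The depletions were then compared directly, on reads of all 6 libraries scaled together. Histidine-depleted cells had higher levels than tryptophan-depleted cells for 14 of the 28 tested targets and lower levels for 11, where 38.7% of 18264 genes were higher and 38.0% lower. FBXW7, XPC and STEAP3 did not pass. The median difference of the targets was 0.094 on the log2 scale, against 0.011 over all genes. It turned to -0.031 when no filter on low values was applied, which also let in EDA2R and SPATA18. A total of 6 targets differed by at least 1, with 31.7% of all genes called at that size. TIGAR, PLK2 and AEN were higher in histidine-depleted cells by 1.39, 1.38 and 1.19. CYFIP2, NINJ1 and PHLDA3 had differences of -2.14, -1.85 and -1.76. MDM2 differed by -0.18 (adjusted p = 0.00193), although neither depletion had passed against untreated cells.

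**Figure D3:**
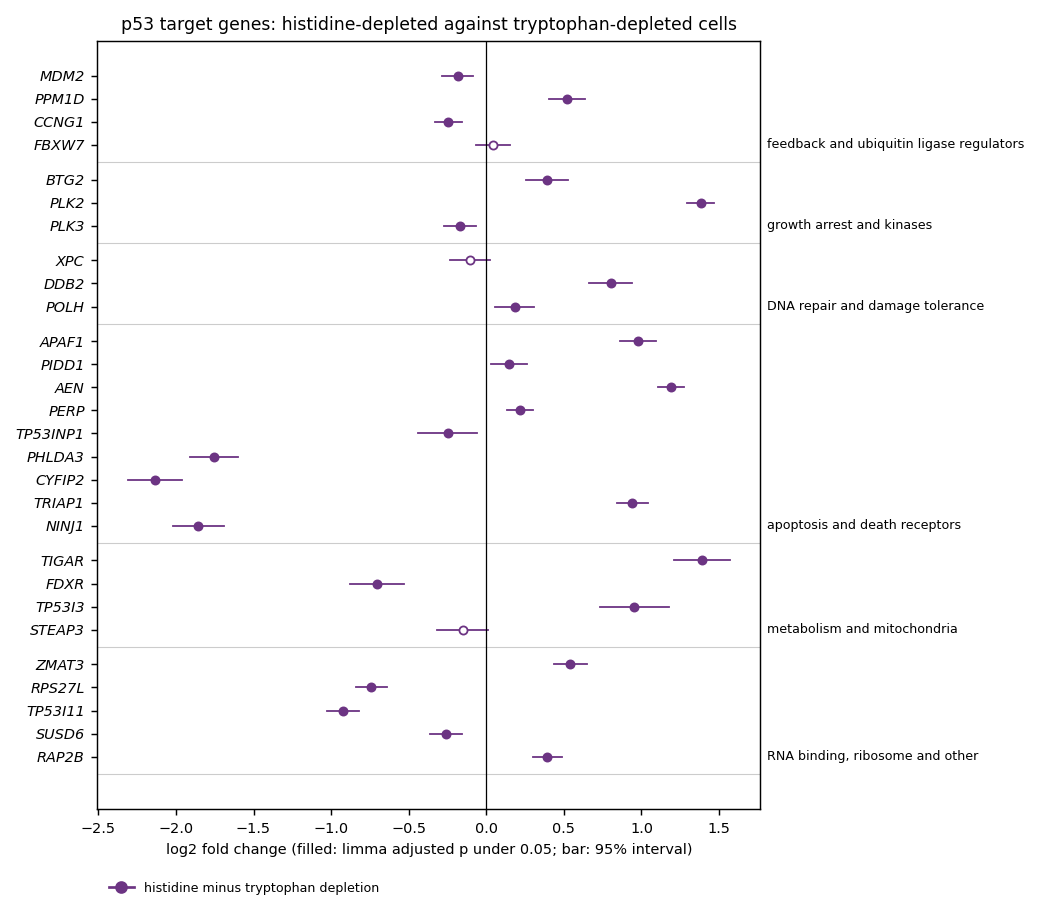
Log2 difference between histidine-depleted and tryptophan-depleted cells for the 28 tested p53 target genes, by role, with limma 95% intervals and filled points for an adjusted p under 0.05. CYFIP2 lies furthest left at -2.14 and TIGAR furthest right at 1.39.

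Promoter sequences were searched for the p53 half-site because these genes are listed as p53 targets. RefSeq promoters (GRCh38.p14, from 250 bases before to 50 after each start) were found for 28 of the 30 genes, not for TP53INP1 and PHLDA3. The 10-letter p53 half-site consensus, read on both strands, occurred in 6.63% of 35116 promoters and in 6 of the 42 promoters of these genes (14.3%). A complete site, made of 2 half-sites at most 13 bases apart, occurred in 10 promoters of the whole table (0.0285%), and DDB2 was the only p53 target here among them. A 20-letter site with up to 2 mismatches occurred in 228 promoters (0.649%), those of DDB2, MDM2 and AEN included. The longer sites are built from the same half-site letters, so the searches overlap. A match describes letters in this window and is not a bound site. The matches of 3 genes that behaved differently are shown, with the site in capitals: DDB2, which fell in both depletions, MDM2, which passed in neither, and AEN, which rose in both.
DDB2, chr11:47214979-47214999, plus strand: GAACAAGCCCTGGGCATGTTT
MDM2, chr12:68808903-68808962, plus strand: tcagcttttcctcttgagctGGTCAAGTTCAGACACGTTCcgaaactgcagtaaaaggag
AEN, chr15:88621266-88621325, plus strand: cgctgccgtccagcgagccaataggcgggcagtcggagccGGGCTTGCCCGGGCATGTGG
The DDB2 match lies within an annotated exon, and the MDM2 match lies inside the gene, before an internal RefSeq start. The promoters of PLK2, FDXR, RAP2B and RPS27L held a half-site without a second one nearby.

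The coding sequences of the 30 targets held a median of 2.34% histidine codons and 1.29% tryptophan codons, against 2.43% and 1.12% over 19598 protein-coding genes. TIGAR, ZMAT3 and RPS27L have no tryptophan codon, and RAP2B has no histidine codon.

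Further genes of the pathway were examined beside the targets. MDM4, a partner of MDM2 that inhibits p53, rose by 0.23 after histidine depletion and by 0.43 when tryptophan was missing. The first of these calls was lost without the trend (adjusted p = 0.0998) and with quantile normalization (0.10, adjusted p = 0.224), and its value was 0.14 without untreated replicate 2. TP73, a relative of p53, fell by 2.21 without histidine and fell by 3.01 without tryptophan. It had 356 and 365 scaled reads in untreated cells, 66.9 and 87.5 without histidine, and 47.0 and 41.2 without tryptophan. CHEK1, the replication checkpoint kinase, fell by 1.26 without histidine and fell by 3.42 without tryptophan. HIPK2, a kinase that phosphorylates p53, fell by 1.90 and fell by 0.32, the latter a call lost without the trend (adjusted p = 0.0673) and a value of -0.20 without untreated replicate 2. Of the 13 regulators listed, 12 were tested, and 5 rose and 6 fell after histidine depletion, and 4 rose and 5 fell after tryptophan depletion. Over all genes tested, 39.1% rose and 38.2% fell without histidine, and 36.1% rose and 34.8% fell without tryptophan.

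Of 20 further p53 targets outside the 30, 11 rose and 7 fell after histidine depletion, and 13 rose and 5 fell after tryptophan depletion. Of all genes tested, 39.1% rose and 38.2% fell in the first comparison and 36.1% rose and 34.8% fell in the second. The medians of these 20 genes were 0.40 and 0.35 on the log2 scale, against 0.010 and 0.013 over all genes tested. The list was chosen with earlier results of these data known, so these medians are not independent of that choice. CDKN1A, the cell cycle inhibitor p21, had 1151 and 1216 scaled reads in untreated cells, 8591 and 8181 without histidine, and 1404 and 1381 without tryptophan. It rose by 2.83 and by 0.23. GADD45A, a stress-induced growth arrest protein, rose by 2.40 and by 0.41. FAS, a death receptor, fell by 1.08 and fell by 2.31. PRDM1, a transcriptional repressor, rose by 1.66 and by 2.03, from 54.7 and 63.7 scaled reads in untreated cells.

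**Figure D4:**
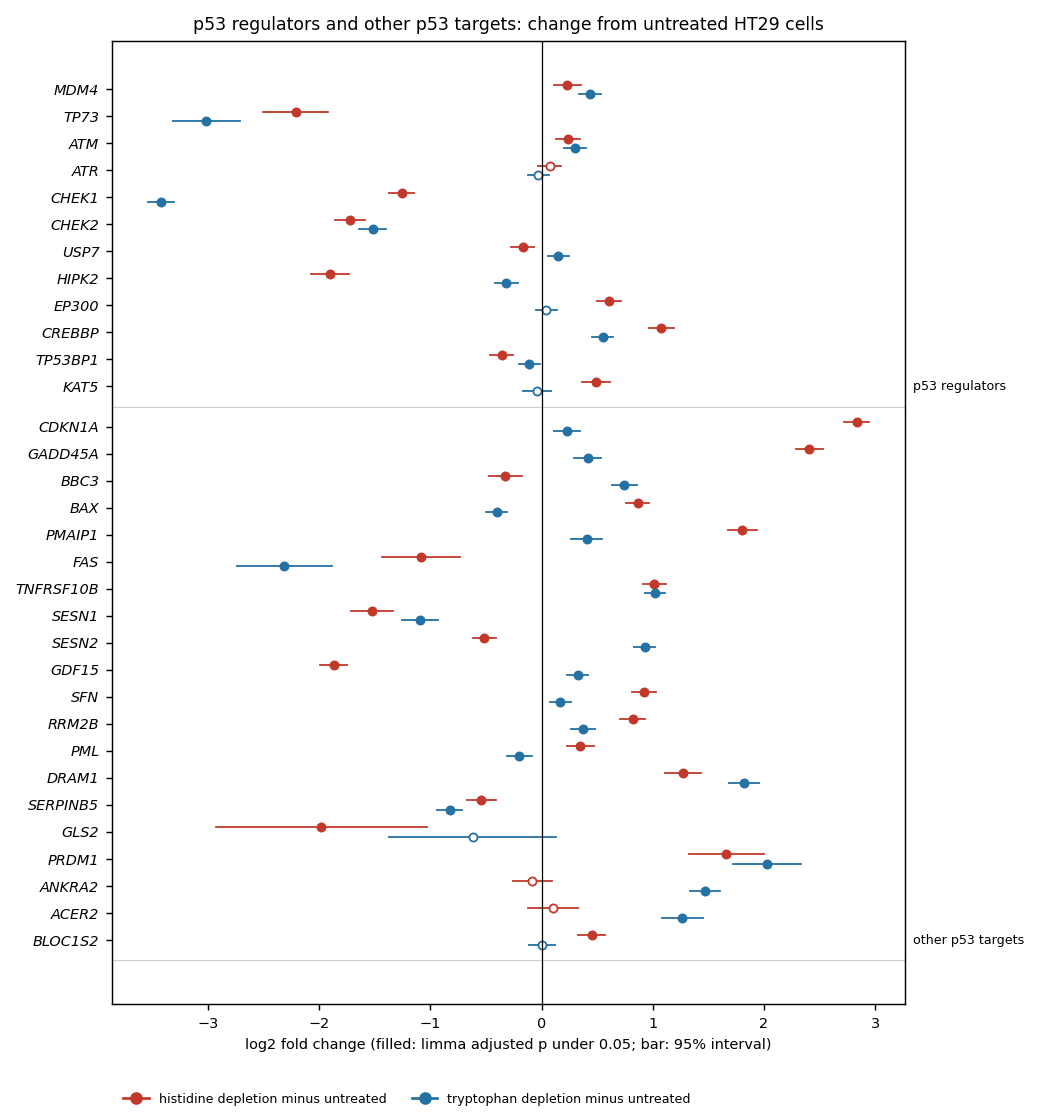
Log2 fold change after histidine depletion (red) and tryptophan depletion (blue) against untreated HT29 cells for 32 tested genes of the p53 pathway outside the 30 targets, with limma 95% intervals and filled points for an adjusted p under 0.05. CDKN1A lies furthest right at 2.83 after histidine depletion, and CHEK1 furthest left at -3.42 after tryptophan depletion.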

How the data were processed

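The authors aligned reads with STAR 2.7.10a, counted them with HTSeq 2.0.5 (per the labels) and divided the counts by DESeq2 size factors, and the resulting signal was deposited separately for each depletion, with the untreated libraries in both. Use of molecular identifiers and strand in counting is not given in the sources used here. Each value was divided by the value of 1 read, which gave whole reads (tolerance 0.1 of a read). Two-sided limma tests (version 3.58.1, R 4.3.3, with a mean-variance trend and no robust step) used log2 values after adding 1 to each normalized count. A gene entered when its mean reached 10, with Benjamini-Hochberg adjustment over all genes and a threshold of 0.05. Fold changes on this scale understate changes of low genes. The depletions were compared on recovered reads scaled by median-of-ratios. limma borrows spread across genes, so its p-values are far smaller than 2 libraries per group alone could give. The scripts were tested on simulated counts in which few genes changed. Most genes passed the test here, a setting that the simulation did not cover. Values in every library are given for targets with a change of at least 1 that passed the test and a mean of at least 100 in the higher group. Always named from the pathway list were CDKN1A and MDM4, with up to 6 others of largest change under the same limits. A gene of the pathway list is not reported here. The members and lists were chosen with earlier results of these data known. Alternatives were edgeR 4.0.16 and DESeq2 1.42.0 on recovered reads, other pseudocounts, filters and scalings, a replicate block and leaving out libraries.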

Additional observations from a re-analysis of the deposited data

How the results depend on the processing

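With quantile normalization the median log2 fold change of the targets after histidine depletion was -0.042, and the cause was not tested. Without filter the low genes EDA2R and SPATA18 also entered, and the median of the direct comparison was -0.031. Leaving out a library gave medians from -0.14 to -0.046 without histidine and from -0.025 to 0.034 without tryptophan, the upper ends without untreated replicate 2. Requiring a log2 change of at least 1 left 3 higher and 3 lower targets after histidine depletion, 3 and 5 after tryptophan depletion, and 3 and 3 in the direct comparison. Of all genes tested, 32.5%, 20.5% and 31.7% were called at that size, in the same order. Directions turned for genes near 0. POLH was 0.00037 after histidine depletion with quantile normalization, PPM1D was -0.0046 after tryptophan depletion with edgeR, and TP53I11 was 0.0024 there when all 6 libraries were fitted together. Leaving out a library gave, after histidine depletion, -0.044 to 0.029 for PLK2, -0.0028 to 0.11 for XPC and -0.031 to 0.10 for TP53INP1, and after tryptophan depletion -0.0097 to 0.010 for PPM1D and -0.067 to 0.057 for TP53I11. After histidine depletion the calls of PERP, PHLDA3 and POLH were lost without a filter or trend and when either histidine-depleted library was left out. Without untreated replicate 1 PHLDA3 had 0.095 (adjusted p = 0.362). MDM2 passed after histidine depletion with edgeR (adjusted p = 0.022), quantile normalization (-0.20, adjusted p = 0.00188) and without untreated replicate 1 (-0.16, adjusted p = 0.0109). PLK2 passed with quantile normalization (-0.23, adjusted p = 0.000118). Replicate numbers did not pair the libraries (correlations of deviations 0.042, 0.0020 and -0.041). With a replicate block 10 targets rose and 14 fell without histidine, where 7311 of 18288 genes rose and 7121 fell. In the same setting 11 targets rose and 12 fell without tryptophan, where 6501 of 17960 genes rose and 6265 fell. In the direct comparison the calls of PIDD1, POLH, TP53INP1 and PRDM1 were lost with DESeq2, and STEAP3 passed with edgeR (adjusted p = 0.0413).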
